A study of Mus musculus with 5 samples.

Results

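The genes described here encode the 19 secreted Wnt ligands of the mouse, their 10 Frizzled receptors and 10 secreted antagonists (Sfrp1, Sfrp2, Sfrp4, Sfrp5, Frzb, Dkk1, Dkk2, Dkk3, Dkk4 and Wif1). They were taken by name, 39 of 21887 protein coding genes. DNA methylation had been read by reduced representation bisulfite sequencing, an assay centred on CpG-dense sequence, in 5 bulk libraries of mice of the C57BL/6x129S6 background. One library was of muscle and is labelled control. The other 4 were teratomas, tumours of mixed tissues, that formed after embryonic stem cells had been injected into tetraploid embryos, and their labels P5_2iL, P5_2iL_F, P5_a2iL_1 and P5_LCDM_1 name the culture conditions of the stem cells without spelling them out.

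Each group holds 1 library, and the labels give no age, no sex and no number of animals or tumours behind a library. Every difference below therefore compares 2 libraries, has no replicate check and carries no test. The control is a differentiated tissue and not the stem cells themselves. In bulk DNA, a level that differs in every cell and a different mix of cell types cannot be told apart.

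Wnt ligands are secreted lipid-modified proteins that bind Frizzled receptors together with the co-receptors Lrp5 or Lrp6, which keeps beta-catenin from being degraded and lets it act with Tcf and Lef factors in the nucleus. Sfrp proteins, Frzb and Wif1 bind the ligands outside the cell, while Dkk1, Dkk2 and Dkk4 act on the co-receptors. The pathway patterns the early embryo and takes part in the growth and repair of muscle, and high methylation of a CpG-rich promoter generally goes with a silent gene.

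Most of these genes have a CpG-rich start. RefSeq promoter entries (GRCm38.p6, the mm10 build) existed for 27 of the 39 genes, 30 entries in all, and the 250 bases before the start held a median of 21.5 CG letter pairs against 6.00 over all 32851 promoters. Of these entries 21 (70.0%) held 15 or more CG, as did 27.3% of all promoters. The median was 28.5 for receptors, 22.5 for ligands and 14.5 for antagonists. The 6 stretches below carry the contrast between starts that stayed at low methylation and starts that did not, and each is the 250 bases before an annotated start, on the strand of the gene, with capitals at each CG measured in all 5 libraries. They are Fzd4 (chr7:89404116-89404365, + strand), Fzd7 (chr1:59481897-59482146, + strand), the CpG-rich start of Wnt5b (chr6:119544348-119544597, - strand), a CpG-poor start of the same gene (chr6:119449387-119449636, - strand), Wnt10b (chr15:98778151-98778400, - strand) and Dkk1 (chr19:30549497-30549746, - strand).
Fzd4: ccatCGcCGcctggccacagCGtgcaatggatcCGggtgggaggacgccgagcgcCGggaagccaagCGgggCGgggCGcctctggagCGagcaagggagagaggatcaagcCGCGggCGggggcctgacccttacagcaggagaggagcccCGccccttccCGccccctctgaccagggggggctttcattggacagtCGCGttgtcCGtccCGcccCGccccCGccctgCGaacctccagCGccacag
Fzd7: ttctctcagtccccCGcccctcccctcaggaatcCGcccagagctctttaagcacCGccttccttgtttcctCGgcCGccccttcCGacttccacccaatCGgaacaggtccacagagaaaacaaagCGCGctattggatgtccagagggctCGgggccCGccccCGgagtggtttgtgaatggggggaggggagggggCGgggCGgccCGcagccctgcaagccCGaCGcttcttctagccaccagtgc
Wnt5b CpG-rich: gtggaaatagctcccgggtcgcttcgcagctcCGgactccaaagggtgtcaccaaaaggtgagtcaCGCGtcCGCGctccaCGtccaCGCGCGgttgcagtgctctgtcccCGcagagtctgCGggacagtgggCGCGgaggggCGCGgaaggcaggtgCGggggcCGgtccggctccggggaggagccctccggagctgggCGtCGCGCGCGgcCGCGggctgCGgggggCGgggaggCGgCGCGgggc
Wnt5b CpG-poor: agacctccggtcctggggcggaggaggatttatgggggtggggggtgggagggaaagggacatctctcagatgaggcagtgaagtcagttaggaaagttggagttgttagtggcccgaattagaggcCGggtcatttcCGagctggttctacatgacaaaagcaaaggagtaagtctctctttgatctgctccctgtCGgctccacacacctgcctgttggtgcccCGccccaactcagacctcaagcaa
Wnt10b: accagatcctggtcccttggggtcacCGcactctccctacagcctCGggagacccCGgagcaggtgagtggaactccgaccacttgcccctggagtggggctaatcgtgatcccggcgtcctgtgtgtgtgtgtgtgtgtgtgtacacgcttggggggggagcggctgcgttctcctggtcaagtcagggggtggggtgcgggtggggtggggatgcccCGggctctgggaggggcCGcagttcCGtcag
Dkk1: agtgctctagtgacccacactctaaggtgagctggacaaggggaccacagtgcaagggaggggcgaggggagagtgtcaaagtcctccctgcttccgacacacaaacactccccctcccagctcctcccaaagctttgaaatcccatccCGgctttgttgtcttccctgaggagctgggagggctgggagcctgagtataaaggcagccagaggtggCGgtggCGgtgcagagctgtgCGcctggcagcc

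The Fzd4 stretch holds 25 CG, and the mean of its 41 cytosines lay between 0.0976% (P5_2iL) and 0.610% (P5_a2iL_1). Fzd7 holds 17 CG and lay between 0% (P5_2iL_F and P5_a2iL_1) and 1.43% (muscle) over 35 cytosines. Both receptor starts were thus nearly free of methylation in every library. These 2 starts of Wnt5b, which encodes a ligand best known for signalling without beta-catenin, differed. Over 44 cytosines the CpG-rich one, with 35 CG, lay between 0.134% (P5_2iL) and 1.06% (P5_a2iL_1). The CpG-poor one, with 7 CG of which 4 were measured, lay at 32.9% in muscle, 66.9% in P5_2iL, 68.6% in P5_2iL_F, 43.2% in P5_a2iL_1 and 58.4% in P5_LCDM_1. The CG of this start differed by unequal amounts. At the one 123 bases before the start muscle lay at 12.5% and P5_2iL at 100%, and at the one 53 bases before it they lay at 18.8% and 22.2%.

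Wnt10b, a ligand that favours myogenic and bone-forming over fat-forming differentiation, had low levels upstream in 3 libraries and higher ones in 2. Over 8 cytosines the mean stood at 2.50% in muscle, 0% in P5_2iL, 2.50% in P5_2iL_F, 18.1% in P5_a2iL_1 and 25% in P5_LCDM_1. The P5_LCDM_1 value came from 1 CG, 224 bases before the start, at 100% on its 2 cytosines, with the other measured CG at 0%. In P5_a2iL_1 it came mainly from the CG 205 bases before the start, at 50.0%. Dkk1, an antagonist that blocks the co-receptors, had 1.68% in muscle, 1.02% in P5_2iL, 0.549% in P5_2iL_F, 11.1% in P5_a2iL_1 and 7.97% in P5_LCDM_1 over 7 cytosines. In P5_a2iL_1 the CG 101 bases before the start, with 1 cytosine, lay at 33.3% and the CG 12 bases before it at 22.2%. The other measured CG of Dkk1 lay at 0% in that library. Of the 24 stretches measured in all 5 libraries, those not yet named reached at most 9.42%, at the inner start of Wnt11 in P5_LCDM_1.

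**Figure D1:**
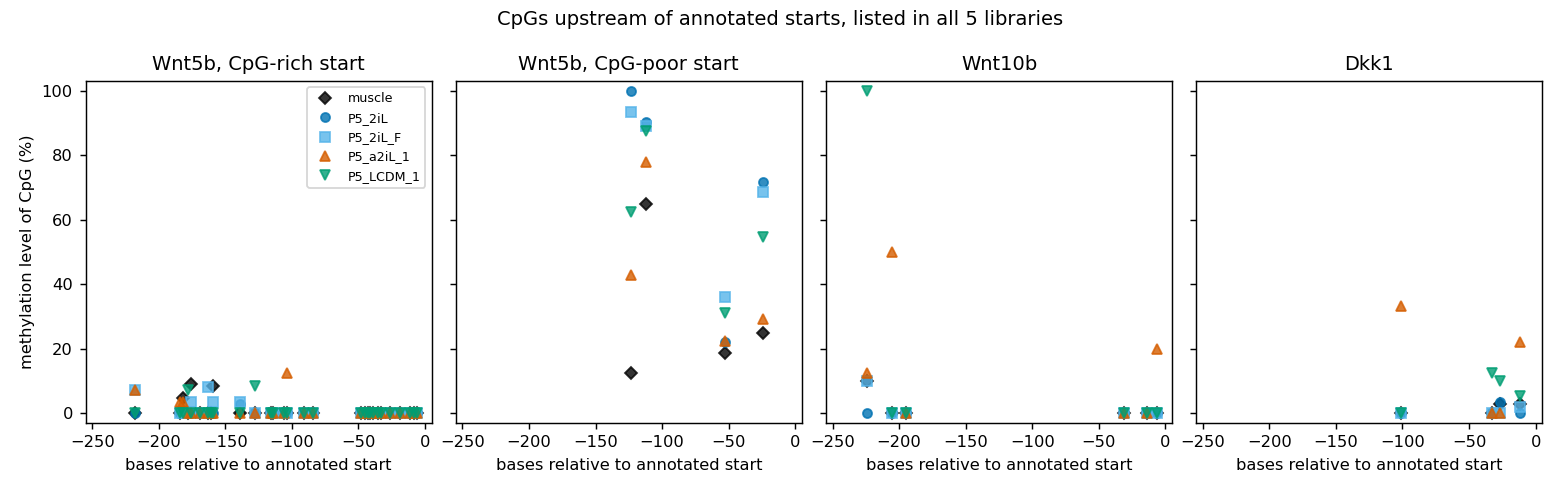
Methylation level (%) of each CpG in the 250 bases before 4 annotated starts, by distance from the start in bases, with 1 marker per library. The CpG-rich Wnt5b start stays near 0 in all 5 libraries, while its CpG-poor start reaches 100% in P5_2iL, and single CpGs of Wnt10b and Dkk1 stand up in P5_a2iL_1 or P5_LCDM_1.

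The libraries list 4017125 (muscle) to 5323090 (P5_2iL_F) cytosines, each with a percent alone, and the depth is unknown. The error available is the difference between the 2 strands of a CpG within a library, which leaves out the spread between preparations and animals. By it, the strands of 1 library lay 25 points or more apart in 1.08% to 2.45% of gene ends, 1.07% to 2.84% of gene bodies and 4.18% to 10.2% of 500 bp blocks. A list of skeletal muscle genes served as the check of the tissue. The mean level of its 17 measured ends was 28.9% in muscle and 51.6% (P5_LCDM_1) to 61.4% (P5_2iL) in the teratomas. The ends of 6 leukocyte genes averaged 55.9% in muscle and 32.0% (P5_2iL) to 45.7% (P5_LCDM_1) in the teratomas. Lists of other tissues also differed. The mean of 5 mesenchymal genes was 28.7% in muscle and 42.9% (P5_a2iL_1) to 48.7% (P5_2iL) in the teratomas, and that of 6 neural genes 10.4% and 15.6% (P5_2iL_F) to 17.1% (P5_a2iL_1 and P5_LCDM_1). The means of 5 endothelial genes (20.1% in muscle, 18.8% in P5_LCDM_1 to 43.8% in P5_a2iL_1) and of 5 epithelial genes (36.0% in muscle, 33.5% in P5_LCDM_1 to 51.9% in P5_2iL) spanned the muscle value. These are methylation levels and not expression. The part that the mix of cell types had in the differences below was not tested.

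Each gene was measured in a window at the end of the gene with more listed cytosines, from 1000 bp outside to 500 bp inside, and over the rest of the gene, its body. An end had a level in all 5 libraries for 36 genes and a body for 38. Wnt2, Wnt6 and Wnt16 had no end level and Dkk4 no body level. The chosen end held the annotated start for 21 of the 27 genes with an entry and lay elsewhere for 6 (Wnt2, Wnt6, Wnt8b, Wnt9b, Wnt16 and Sfrp2). For the 12 genes without an entry, whether the chosen end is the start is not known.

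Most gene ends of the pathway were low in all libraries. Of the 36 measured ends 25 lay under 10% in every library, as did 68.6% of the 14739 gene ends measured in all 5. They comprised all 10 receptors, 9 of 16 ligands and 6 of 10 antagonists. The median receptor end stood at 0.978% in muscle, 0.667% in P5_2iL, 0.677% in P5_2iL_F, 0.935% in P5_a2iL_1 and 1.42% in P5_LCDM_1. The median ligand end stood at 2.70% in muscle, 6.32% in P5_2iL, 5.58% in P5_2iL_F, 6.07% in P5_a2iL_1 and 6.94% in P5_LCDM_1. The median antagonist end stood at 1.5% in muscle, 3.42% in P5_2iL, 3.63% in P5_2iL_F, 7.41% in P5_a2iL_1 and 4.99% in P5_LCDM_1. Over all genes the same medians ran from 1.04% in muscle to 1.52% in P5_LCDM_1.

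Differences at the ends were small for most genes. A size rule was used in place of a test, met where the means of 2 libraries lay at least 25 percentage points apart over 3 or more cytosines that both list. Against muscle it was passed by 2 of 36 members in P5_2iL (5.56%) and by 1 of 36 (2.78%) in each of P5_2iL_F, P5_a2iL_1 and P5_LCDM_1. The same rule was passed by 6.16%, 5.77%, 4.11% and 4.77% of all gene ends, so the members' share was not above the background. These 4 comparisons share the muscle library. The median difference of the antagonists was 2.57 points in P5_2iL, 1.54 in P5_2iL_F, 5.58 in P5_a2iL_1 and 3.45 in P5_LCDM_1. That of the ligands was 0.872, 0.641, 0.888 and 2.03 points in the same order, and that of the receptors -0.178, -0.153, 0.110 and 0.795 points. Over all genes the median difference was 0.260, 0.235, 0.215 and 0.215 points. At annotated starts, measured for 6 antagonists, their median difference was 0.358, 0.393, 3.95 and 2.43 points in the same order. That set leaves out Sfrp1, Sfrp4, Dkk3 and Dkk4, which have no promoter entry.

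Among the ligands, the ends of Wnt4, Wnt9a (joint formation), Wnt11 (heart and kidney), Wnt7a (limb and nervous system), Wnt2b (eye and lung) and Wnt3 lay under 4% in every library. Wnt4, needed for kidney and gonad formation, had 0.3% in muscle and 0.313% (P5_LCDM_1) to 1.79% (P5_a2iL_1) in the teratomas over 116 cytosines. Wnt1 and Wnt3a, which signal through beta-catenin in the neural tube and the primitive streak, lay at 1.63% and 2.45% in muscle. In the teratomas Wnt1 lay between 4.51% (P5_2iL_F) and 7.65% (P5_a2iL_1) over 39 cytosines, and Wnt3a between 5.44% (P5_LCDM_1) and 7.36% (P5_2iL) over 88. For both genes the muscle value was the lowest of the 5, by less than the size rule. Wnt10b had 2.95% in muscle, 0.795% in P5_2iL, 3.51% in P5_2iL_F, 6.14% in P5_a2iL_1 and 11.4% in P5_LCDM_1 over 44 cytosines. Wnt5a, a ligand of limb and body axis outgrowth, ran from 6.31% in muscle to 11.7% in P5_LCDM_1. Wnt5b, Wnt7b and Wnt10a spanned 9.10% to 12.9%, 4.26% to 8.23% and 8.37% to 13.1%, with muscle inside the range of the teratomas for Wnt5b and Wnt10a and below it for Wnt7b. The highest ligand ends were those of Wnt8a and Wnt9b, and next Wnt8b, whose 8 cytosines averaged 31.4% in muscle and 17.4% (P5_LCDM_1) to 26.5% (P5_2iL) in the teratomas. Wnt8a, with only 7 cytosines, had 63.6% in muscle and 42.9% (P5_a2iL_1) to 67.0% (P5_LCDM_1) in the teratomas.

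Wnt9b, which encodes a ligand that starts nephron formation, was the 1 ligand past the rule at its end. Over the 14 cytosines listed in all libraries the level stood at 75.0% in muscle, 32.5% in P5_2iL, 40.4% in P5_2iL_F, 67.5% in P5_a2iL_1 and 39.9% in P5_LCDM_1. Muscle and P5_a2iL_1 were thus high and the other 3 low. The difference of P5_2iL from muscle was -42.5 points, with -74.3 and -38.9 points on the separate strands of 6 CpGs. P5_2iL_F and P5_LCDM_1 shared 21 cytosines with muscle, over which they differed from it by -13.5 and -13.9 points, so their distance rests on which cytosines are counted. This window lies at the end of the gene away from its start. At the annotated start of Wnt9b the level over 111 cytosines was 1.23% in muscle and 1.73% (P5_2iL) to 3.18% (P5_LCDM_1) in the teratomas. The gene span of Wnt9b overlaps that of Wnt3, and the 2 share some blocks. The annotated start of Wnt2, a ligand of lung development, also was low, with 0.613% in muscle and 0.672% (P5_2iL_F) to 2.97% (P5_LCDM_1) in the teratomas over 64 cytosines. That of Wnt6 ran from 0.581% in muscle to 2.83% in P5_a2iL_1.

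All receptor ends lay under 10% in every library. Fzd7, a receptor active in stem cells, lay between 0.135% (P5_a2iL_1) and 0.866% (P5_LCDM_1) over 148 cytosines, and Fzd4, the Norrin receptor of retinal vessels, between 0.676% (P5_2iL) and 1.27% (P5_LCDM_1) over 182. Single libraries stood above the rest at 2 of them. Fzd3, a receptor of axon guidance and planar polarity, had 0.339% in muscle, 0.330% in P5_2iL, 1.14% in P5_2iL_F, 0.614% in P5_a2iL_1 and 9.15% in P5_LCDM_1 over 130 cytosines. In the 500 bp just outside the gene the P5_LCDM_1 level was 16.3%, with 19.2% and 16.8% on the 2 strands, against at most 0.750% in the other libraries. Fzd10 had 1.32% in muscle, 2.89% in P5_2iL, 2.15% in P5_2iL_F, 9.12% in P5_a2iL_1 and 4.95% in P5_LCDM_1 over 134. Both stayed below the size rule. The ends of the other 6 receptors lay between 0.116% (Fzd2 in P5_2iL) and 3.54% (Fzd1 in P5_a2iL_1).

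Dkk3, a divergent member of the Dickkopf family, was the antagonist past the rule at its end. Its window (chr7:112158983-112160482) held 14 cytosines and lay at 3.98% in muscle, 29.9% in P5_2iL, 41.9% in P5_2iL_F, 45.9% in P5_a2iL_1 and 49.2% in P5_LCDM_1. The differences from muscle were 25.9, 37.9, 41.9 and 45.2 points, and on the 2 strands of 6 CpGs they were 29.2 and 29.0 points in P5_2iL and 42.8 and 44.9 points in P5_LCDM_1. All 4 teratomas lay well above muscle. With the strands of each CpG averaged first, the P5_2iL difference was 23.6 points and missed the rule. All 14 cytosines lay in the first 500 bp inside the gene, so this level does not cover the 1000 bp outside it. Dkk3 has no promoter entry, so whether its start lies within this window is not known. From 500 to 1000 bp inside, 18 cytosines had 5.31% in muscle and 10.1% (P5_2iL) to 17.7% (P5_2iL_F) in the teratomas. From 1000 to 2000 bp, 52 cytosines had 3.42% and 5.09% (P5_a2iL_1) to 12.3%. Beyond 10000 bp, 26 cytosines had 42.0% and 74.7% (P5_a2iL_1) to 81.3% (P5_2iL). Sfrp1, a ligand-binding antagonist often methylated in tumours, had 0.252% in muscle, 1.88% in P5_2iL, 3.57% in P5_2iL_F, 12% in P5_a2iL_1 and 5.13% in P5_LCDM_1 over 144 cytosines. Sfrp4, another of its family, had 2.42%, 10.9%, 11.9%, 9.70% and 16.9% in the same order over 69. Dkk4 alone was highly methylated at its end, with 89.4% in muscle and 70.5% (P5_a2iL_1) to 97.3% (P5_2iL) in the teratomas over 16. It has no promoter entry either, so whether this end is its start is not known. Frzb and Sfrp2 stayed under 4% in every library. Sfrp5 reached 8.99% in P5_2iL, Dkk1 6.95%, Dkk2 6.51% and Wif1 4.28% in P5_a2iL_1, with muscle at 0.741%, 1.21%, 1.09% and 1.30%. For Sfrp1, Sfrp2, Dkk1, Dkk2 and Wif1 the highest of the 5 libraries was P5_a2iL_1. That library also had the largest median difference between strands at member ends. It was 2.52 points, against 0.910 (P5_2iL) to 1.15 (P5_LCDM_1) in the other libraries.

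**Figure D2:**
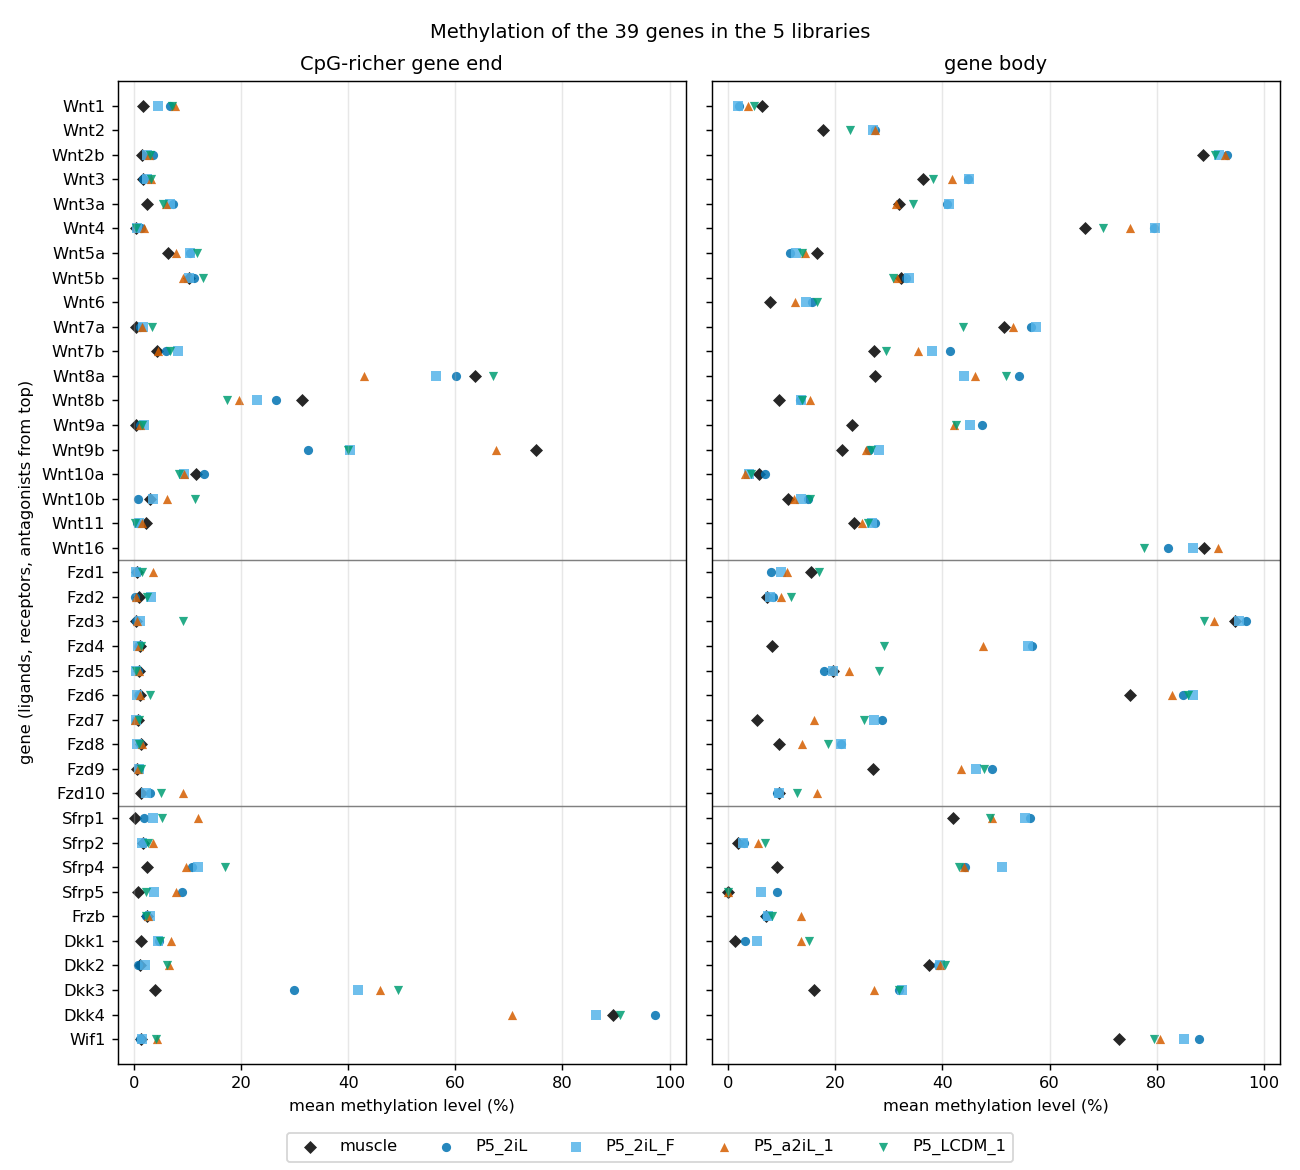
Mean methylation level (%) of the CpG-richer gene end (left) and the gene body (right) of each of the 39 genes, with 1 marker per library and lines between ligands, receptors and antagonists. Receptor ends sit under 10% in every library, Dkk3 stands alone among low muscle ends with teratomas from 29.9% to 49.2%, and the Fzd4 and Sfrp4 bodies show the widest gaps from muscle.

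Gene bodies differed more than ends. The median receptor body stood at 12.5% in muscle, 24.9% in P5_2iL, 24.2% in P5_2iL_F, 19.5% in P5_a2iL_1 and 26.8% in P5_LCDM_1. That of antagonists was 9.05%, 31.8%, 32.4%, 27.2% and 31.8%, and that of ligands 23.4%, 33.2%, 33.7%, 31.4% and 29.4%. Over all genes the medians were 55.3%, 66.3%, 65.5%, 61.9% and 58.8%, so the median of each role lay below that of all genes in each library. Single bodies, such as those of Wnt2b and Fzd3, lay above it. The bodies of Wnt2, Wnt6 and Wnt9b include their annotated starts, with 64 of 157, 66 of 217 and 111 of 430 body cytosines. Those starts lay between 0.581% (Wnt6 in muscle) and 3.18% (Wnt9b in P5_LCDM_1), so they lower these body levels. The Wnt9b body also takes in the start of Wnt3. The median difference from muscle for receptors was 5.64, 7.01, 5.89 and 10.1 points in the 4 teratomas, against 5.42, 4.95, 2.59 and 1.35 points over all genes. For antagonists it was 9.09, 6.06, 7.72 and 4.90 points, and for ligands 5.34, 5.77, 3.73 and 2.30 points. Past the rule were 3 of 38 bodies in P5_2iL, 2 in P5_2iL_F, 2 in P5_a2iL_1 and 1 in P5_LCDM_1, or 7.89%, 5.26%, 5.26% and 2.63%. The background over all bodies was 7.22%, 6.17%, 3.39% and 3.86%.

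**Figure D3:**
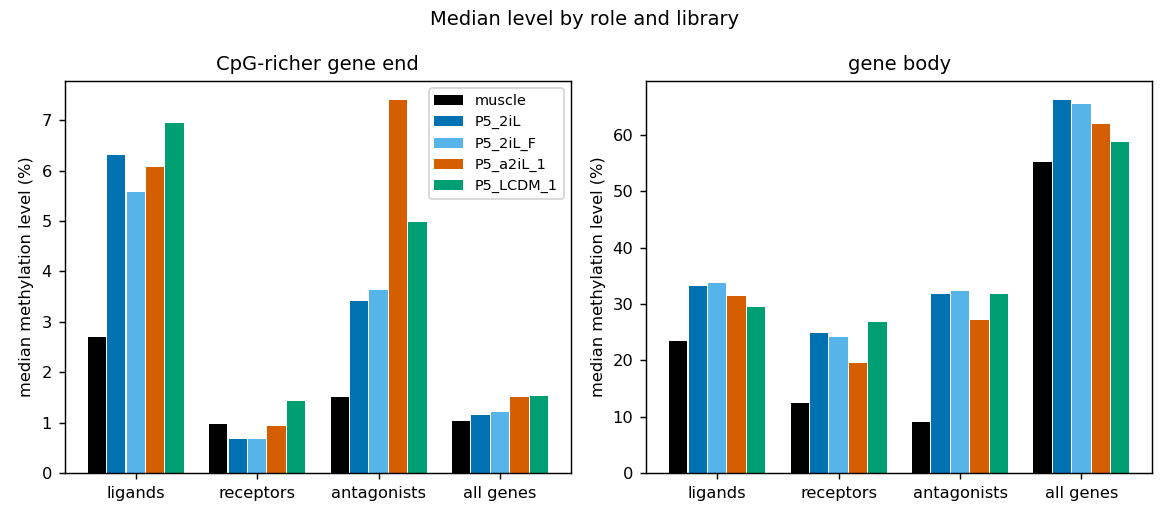
Median methylation level (%) of gene ends (left) and gene bodies (right) for ligands, receptors, antagonists and all genes, with 1 bar per library. The vertical scales differ between panels. Muscle has the lowest median in each body group, and receptor ends stay at or under 1.42%.

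Fzd4 had the largest body difference among the 39 genes. Its 76 body cytosines averaged 8.22% in muscle, 56.8% in P5_2iL, 56% in P5_2iL_F, 47.5% in P5_a2iL_1 and 29.1% in P5_LCDM_1. The first 3 teratomas passed the rule, with differences of 48.6, 47.7 and 39.2 points, and P5_LCDM_1 at 20.9 points did not. On the separate strands of 32 CpGs the P5_2iL difference was 45.9 and 55.2 points. With the end window counted in, the P5_a2iL_1 difference was 20.9 points and missed the rule. The difference was not spread along the gene. From 635 to 1134 bp inside the gene every library lay at 0.882% or less over 17 cytosines. From 2635 to 3134 bp (chr7:89407001-89407500) the level stood at 11.6% in muscle, 97.3% in P5_2iL, 91.2% in P5_2iL_F, 70.9% in P5_a2iL_1 and 42.0% in P5_LCDM_1 over 11 cytosines, and the next block of 28 cytosines gave 12.6%, 97.0%, 96.2%, 86.2% and 50.3%. The blocks between were not measured in all libraries.

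Fzd7 had the same form without passing the body rule, at 22.8, 22.0, 10.6 and 20.1 points. Up to 1353 bp inside the gene its blocks stayed at or under 4.56% in all libraries. From 2354 to 2853 bp (chr1:59484501-59485000) they lay at 9.10% in muscle, 94.1% in P5_2iL, 84.4% in P5_2iL_F, 50.8% in P5_a2iL_1 and 81.3% in P5_LCDM_1 over 23 cytosines. On the 2 strands muscle had 3.66% and 8.33% and P5_2iL 93.1% and 100%. All 4 teratomas were far above muscle there, with P5_a2iL_1 the lowest of them. Fzd9, a receptor of bone and brain, had 46.6%, 93.2%, 89.4%, 80.5% and 85.6% over 41 cytosines from 1047 to 1546 bp, in the order muscle, P5_2iL, P5_2iL_F, P5_a2iL_1 and P5_LCDM_1. Its body gave 27.1%, 49.2%, 46.3%, 43.5% and 47.7% over 106. Fzd8 had 31.6%, 70.1%, 71.6%, 39.4% and 59.8% over 65 cytosines from 1645 to 2144 bp. Outside the gene, past the far end of Fzd2, a block of 7 cytosines had 11.9%, 71.6%, 66.7%, 65.6% and 41.5%. Muscle was the lowest library in each of these stretches.

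Fzd1 and Fzd5 were lower in teratomas at a like distance. Fzd1, from 2216 to 2715 bp, had 81.0% in muscle, 35.5% in P5_2iL, 45.4% in P5_2iL_F, 36.2% in P5_a2iL_1 and 55.2% in P5_LCDM_1 over 21 cytosines, with muscle at 85% and 80.0% on the 2 strands. Fzd5, a receptor of yolk sac vessels and the eye, had 57.1%, 4.50%, 8.93%, 54.0% and 49.2% from 2750 to 3249 bp over 21. For Fzd5 P5_2iL and P5_2iL_F were low while P5_a2iL_1 and P5_LCDM_1 lay near muscle. On the 2 strands P5_2iL had 5.56% and 6.25%, and P5_LCDM_1 75.0% and 33.3%. Nearer the start, from 1750 to 2249 bp, Fzd5 was higher in the teratomas, with 41.3% in muscle and 58.3% (P5_2iL) to 83.5% (P5_LCDM_1).

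**Figure D4:**
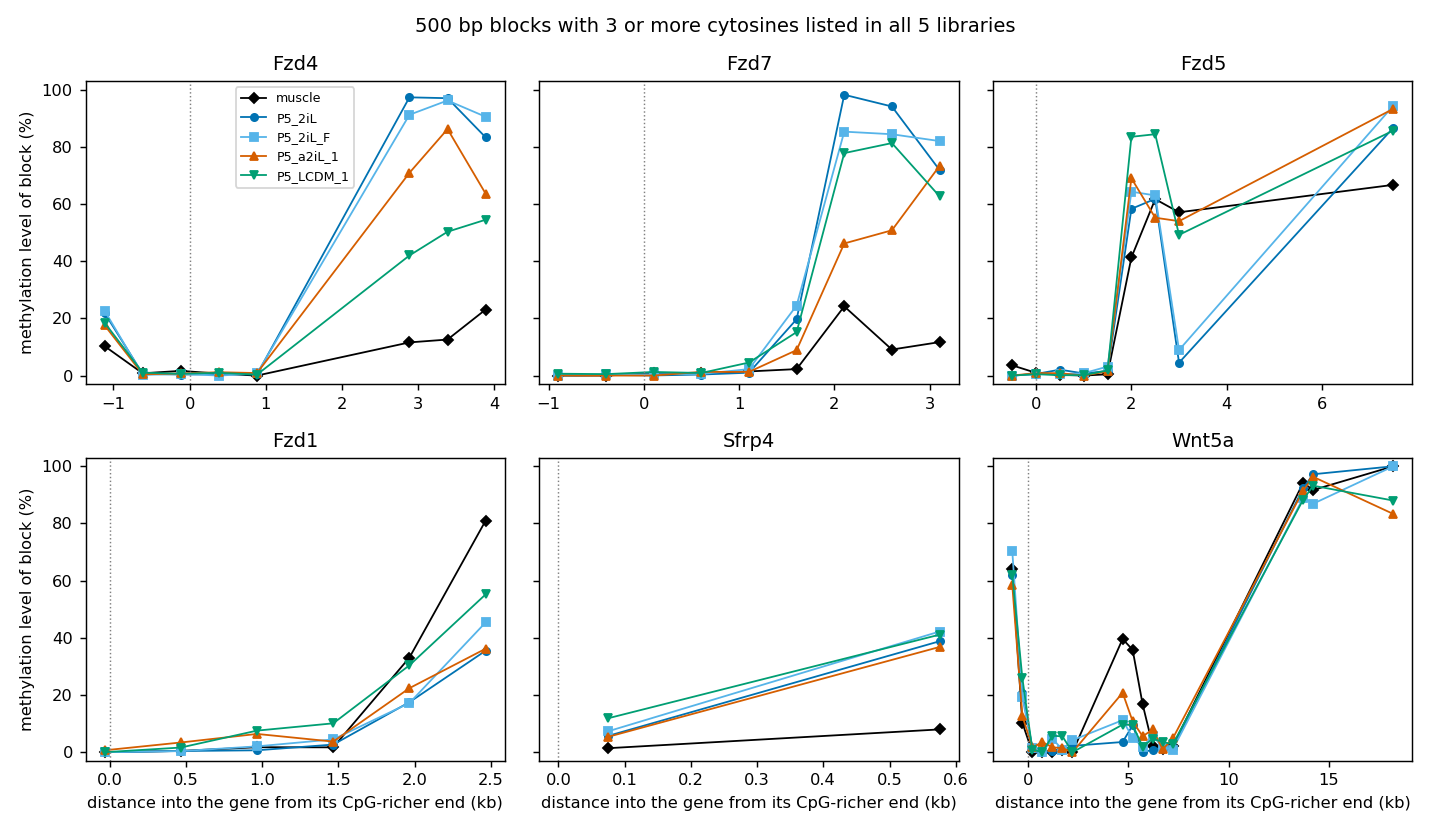
Methylation level (%) of 500 bp blocks along 6 genes, by distance of the block centre from the CpG-richer gene end in kb (negative values lie outside the gene), with 1 line per library. Lines join measured blocks across unmeasured stretches, and the last block of Fzd5 lies past the far end of the gene. The teratomas rise above muscle beyond 2 kb in Fzd4 and Fzd7, and muscle lies above them in the last block of Fzd1 and near 5 kb in Wnt5a.

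Set by distance, the receptors kept near muscle at the start and moved away from it further in. From 1000 bp outside to the gene end their median difference was -0.138 points in P5_2iL, -0.162 in P5_2iL_F, -0.246 in P5_a2iL_1 and 0.672 in P5_LCDM_1 over 9 genes. From 1000 to 2000 bp inside it was 3.43, 5.80, 4.55 and 8.56 points over 7 genes, against 1.49, 1.47, 0.793 and 1.11 points over all genes. From 2000 to 4000 bp inside it was 34.6, 31.9, 10 and 17.7 points over 5 genes, against 4.99, 4.53, 2.14 and 1.55 points over 5057 genes. These 5 genes were Fzd4, Fzd7 and Fzd8, which were higher in all 4 teratomas, Fzd1, which was lower in all 4, and Fzd5, at 61.9% in muscle, 47.4% in P5_2iL, 49.5% in P5_2iL_F, 60.3% in P5_a2iL_1 and 74.7% in P5_LCDM_1. The median therefore stands for a mixed group. Over the whole stretch Fzd1 had 61.1% in muscle and 29.1% (P5_2iL) to 41.5% (P5_LCDM_1) in the teratomas. Antagonists lay above all genes just inside the gene. From 0 to 500 bp inside, their median difference was 3.56, 2.12, 6.28 and 4.06 points over 10 genes, against 0.141, 0.110, 0.107 and 0.131 points. In the 1000 bp outside it was -0.117, 0.149, 1.04 and 2.98 points over 6 genes, against 0.202, 0.184, 0 and 0.116 points, so P5_2iL and P5_2iL_F lay below all genes there.

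**Figure D5:**
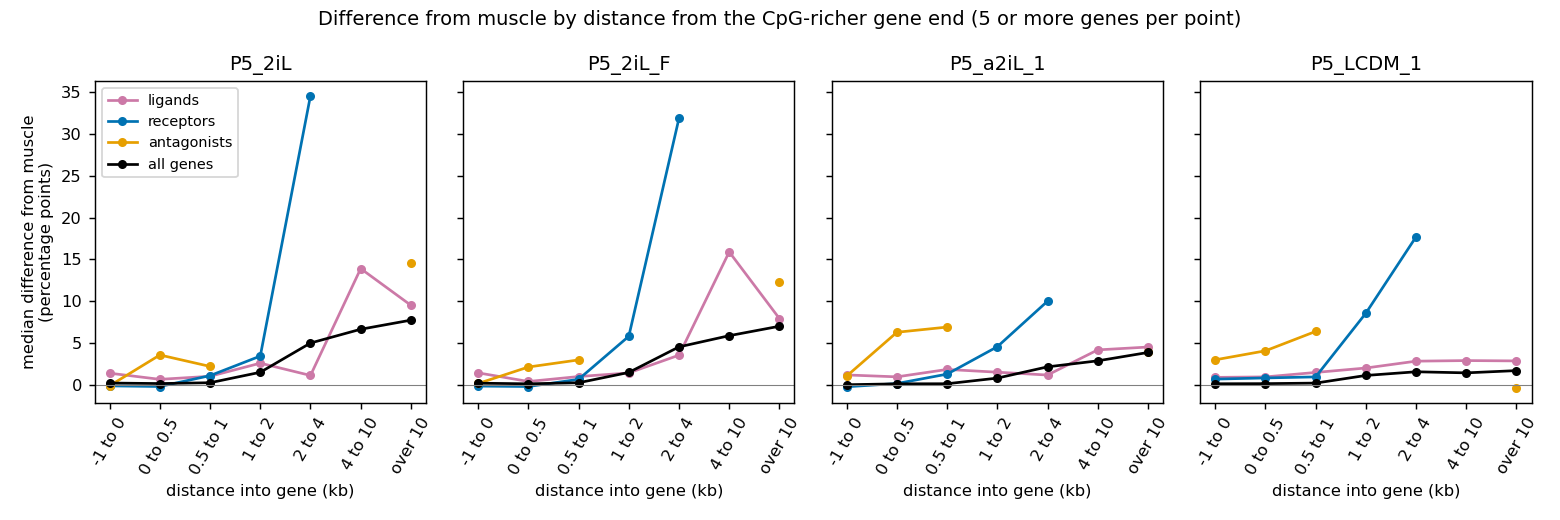
Median difference of each teratoma from muscle (percentage points) by distance into the gene from its CpG-richer end (kb), for the 3 roles and all genes, at points with 5 or more genes. Receptors lie above the line of all genes at 1 to 2 kb, with 8.56 points in P5_LCDM_1, and further above it at 2 to 4 kb, where 5 genes give 34.6 points in P5_2iL. Antagonists lie above it within the first 1 kb inside the gene.

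Sfrp4 was the antagonist whose body passed the rule in every comparison with muscle. Over the 21 cytosines of all libraries its body had 9.05% in muscle, 44.2% in P5_2iL, 51.1% in P5_2iL_F, 44.1% in P5_a2iL_1 and 43.0% in P5_LCDM_1. All 21 lay 500 to 1000 bp inside the 9651 bp gene, beside the end window, so the rest of the body was not measured in all 5 libraries. The differences, over the 21 to 25 body cytosines shared by each pair, were 35.2, 41.3, 35.0 and 29.2 points. The block from 326 to 825 bp inside the gene overlaps this stretch and the end window. It gave 7.97%, 38.8%, 42.2%, 36.8% and 41.1% over 34 cytosines, with 10.4% and 4.17% on the strands of muscle. The 4 teratomas lay close to each other and all above muscle. When the end window was counted with the body, Sfrp4 fell under the rule, at 16.1 to 21.2 points. Sfrp1 had 16.7% in muscle and 73.3% (P5_a2iL_1) to 93.9% (P5_2iL) in the teratomas from 3118 to 3617 bp over 6 cytosines. Wif1 had 5% and 55.9% (P5_a2iL_1) to 91.3% (P5_2iL) from 65497 to 65996 bp over 8, where the 2 strands of P5_2iL_F stood at 38.1% and 95.8%.

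The 1 ligand body past the rule was that of Wnt8a, a ligand of the posterior embryo, in P5_2iL. It had 27.5% in muscle, 54.3% in P5_2iL, 44.0% in P5_2iL_F, 46.0% in P5_a2iL_1 and 51.9% in P5_LCDM_1 over 66 cytosines. The differences were 26.8, 16.5, 18.5 and 24.4 points, so P5_LCDM_1 lay just under the rule. With the end window counted in, the P5_2iL difference was 23.9 points and missed the rule as well. Wnt9a lay at 23.2% in muscle and 42.2% (P5_a2iL_1) to 47.4% (P5_2iL) in the teratomas over 93. Single blocks of other ligands went further. Wnt6 had 16.8% in muscle, 70.2% in P5_2iL, 57.3% in P5_2iL_F, 52.8% in P5_a2iL_1 and 63.9% in P5_LCDM_1 over 23 cytosines (chr1:74782501-74783000). Wnt9b had 29.8%, 87.7%, 92.4%, 69.6% and 81.4% over 15 from 7639 to 8138 bp, with 25.7% and 38.1% on the strands of muscle. In Wnt3, a ligand needed for gastrulation, a block of 10 cytosines had 7.85%, 56%, 56.8%, 13.2% and 34.5%, so that P5_a2iL_1 lay near muscle. Wnt4 and Wnt7b had 11.9% and 4.17% in muscle against 96.3% and 97.9% in P5_2iL over 6 and 12 cytosines that gave no strand pairs.

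Wnt5a went down inside the gene. From 4458 to 4957 bp (chr14:28509001-28509500) it had 39.6% in muscle, 3.57% in P5_2iL, 11.2% in P5_2iL_F, 20.8% in P5_a2iL_1 and 9.65% in P5_LCDM_1 over 23 cytosines. On the 2 strands muscle had 37.5% and 39.8% and P5_2iL 4.26% and 3.21%. The next 2 blocks gave 35.8% and 16.7% in muscle and at most 10.8% in the teratomas. At 13458 to 13957 bp all 5 libraries lay between 88.3% and 94.2%. The lower level of a Wnt1 block, with 22.8% in muscle and 1% (P5_a2iL_1) to 2.51% (P5_LCDM_1) in the teratomas over 23 cytosines, was not seen at its 8 strand pairs, where muscle had 1.67% and 1.39%.

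The highest and lowest body of each role was taken by the mean over the 5 libraries. Wnt2b had the highest mean of the ligands, at 88.6% in muscle and up to 93.2% (P5_2iL), and Wnt1 the lowest, at 1.90% (P5_2iL_F) to 6.27% (muscle). Fzd3 was the highest receptor, at 88.8% (P5_LCDM_1) to 96.6% (P5_2iL), and Fzd2 the lowest, at 7.22% (muscle) to 11.7% (P5_LCDM_1). Wif1 was the highest antagonist, at 72.9% (muscle) to 87.9% (P5_2iL), and Sfrp5 the lowest, at 0% in muscle, P5_a2iL_1 and P5_LCDM_1 and 9.09% in P5_2iL over 11 cytosines. Apart from Dkk3, Wnt9b, Fzd4, Sfrp4 and Wnt8a, no member passed the size rule at its end or body in any of the 10 comparisons.

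Over all 500 bp blocks in and within 1000 bp of the genes, the shares past the rule were close to those of all genes. Against muscle 88 of 442 blocks (19.9%) were higher in P5_2iL and 16 (3.62%) lower, with 17.0% and 3.63% of all blocks. In P5_2iL_F 16.5% of 448 were higher and 4.46% lower, with 16% and 3.59% of all blocks. In P5_a2iL_1 12.6% of 436 were higher and 4.59% lower, with 11.4% and 3.40%. In P5_LCDM_1 11.6% of 450 were higher and 5.78% lower, with 10.4% and 5.74%. The blocks named above were picked for their size and are examples, and the share of such blocks was close to that of all genes. Antagonist blocks were higher in 26.5%, 22.4%, 15.9% and 17.4% of cases in the 4 teratomas, over 63 to 69 blocks. Receptor blocks were higher in 16.2%, 17.3%, 14.7% and 16.4%, and ligand blocks in 19.3%, 15.0%, 11.4% and 9.09%. Neighbouring blocks of 1 gene count separately here. Of the 18 higher antagonist blocks in P5_2iL, 6 lay in Dkk3 and 6 in Wif1, and Sfrp2, Dkk1, Dkk2 and Dkk4 had 0.

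Between teratomas few of the genes passed the rule. Against P5_2iL, which serves here as a second reference library, 0 of 36 ends passed the rule in P5_2iL_F, 1 (Wnt9b) in P5_a2iL_1 and 0 in P5_LCDM_1, with 0.768%, 3.23% and 4.58% of all ends. Wnt9b had 76.0% in P5_a2iL_1 and 50.2% in P5_2iL over 19 shared cytosines, and with strands averaged first the difference was 24.5 points, under the rule. Of 38 bodies 0, 0 and 1 passed, with 0.659%, 2.27% and 5.19% of all bodies. The 1 body was that of Fzd4, lower in P5_LCDM_1 than in P5_2iL with a difference of -27.7 points, or -31.3 and -27.1 points on the 2 strands. Its difference from P5_2iL_F was -26.9 points. For P5_a2iL_1 against P5_2iL_F, P5_LCDM_1 against P5_2iL_F and P5_LCDM_1 against P5_a2iL_1, 0 ends passed, with backgrounds of 2.56%, 4.30% and 3.22%. For bodies 0, 1 (Fzd4) and 0 passed, with backgrounds of 1.83%, 4.49% and 2.60%.

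In blocks compared with P5_2iL, P5_2iL_F differed least. There 1.05% of 475 member blocks were higher and 2.74% lower, with 1.76% and 2.03% of all blocks. In P5_a2iL_1 1.74% of 461 were higher and 8.03% lower, with 3.16% and 7.27%. In P5_LCDM_1 2.15% of 465 were higher and 11.8% lower, with 3.45% and 12.5%. Lower blocks thus outnumbered higher ones in all 3 comparisons, as they did over all genes. Among the named stretches, Fzd4 was lowest of the teratomas in P5_LCDM_1 and Fzd7 in P5_a2iL_1.

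Other genes of the pathway were read at their ends from lists of its parts. Of all gene ends 4.93% were higher than muscle by the rule in P5_2iL, 4.64% in P5_2iL_F, 3.24% in P5_a2iL_1 and 3.41% in P5_LCDM_1. Of the co-receptors and genes of ligand release, 1 of 13 to 14 measured was higher in P5_2iL, P5_2iL_F and P5_a2iL_1 and 2 in P5_LCDM_1. The 1 was Musk, a Wnt-binding kinase of the neuromuscular junction, at 16.4% in muscle, 92.9% in P5_2iL, 94.8% in P5_2iL_F, 85.2% in P5_a2iL_1 and 75.0% in P5_LCDM_1 over 12 cytosines at its start. Musk is itself a gene of muscle. The other in P5_LCDM_1 was Wls, which carries Wnt ligands to the cell surface, at 27.3% against 0% over 11 cytosines. Of the 7 measured genes of the R-spondin axis 0 passed in any of the 4 comparisons. Among 10 other inhibitors Cer1, an antagonist of Nodal, BMP and Wnt, passed in all 4, with 36.2% in muscle and 66.0% (P5_LCDM_1) to 94.8% (P5_2iL) over 14. Sostdc1 passed in P5_2iL, at 96.0% against 40.8% over 13, and in P5_2iL_F.

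Of 18 to 19 intracellular genes 2 were higher in P5_2iL, P5_2iL_F and P5_a2iL_1 and 1 in P5_LCDM_1, beside the 3.24% to 4.93% of all gene ends. Axin2, a feedback inhibitor and widely used readout of the pathway, had 3.21% in muscle, 64.8% in P5_2iL, 57.0% in P5_2iL_F, 55.3% in P5_a2iL_1 and 32.6% in P5_LCDM_1 over the 13 cytosines of all libraries. This window lies away from the annotated start of Axin2, where all libraries had at most 1.44% over 54 cytosines. Bcl9, a beta-catenin cofactor, had 4% in muscle and 27.8% (P5_LCDM_1) to 37.1% in the teratomas over 5, also away from its start, where it had at most 1.39%. Of 14 to 15 target genes of the pathway, Axin2 included, 2 were higher in P5_2iL and P5_2iL_F and 1 in P5_a2iL_1 and P5_LCDM_1. The other was Cdx1, a regulator of the posterior body axis and intestine, at 10.9% in muscle, 65.0% in P5_2iL, 48.8% in P5_2iL_F, 36.0% in P5_a2iL_1 and 35.3% in P5_LCDM_1 over the 100 cytosines of all libraries. Over the cytosines shared by each pair the differences were 52.0, 35.1, 24.5 and 23.3 points.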

How the data were processed

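Reduced representation bisulfite sequencing was available as 5 libraries, 1 per group. The deposited files give, per the values in them, a chromosome, a position and a methylation percent for each listed cytosine, with no read count. Reads were trimmed with Trim Galore 0.6.4 and handled with Bismark on mm10, per the submitters' processing notes. Not given in the sources used here were the Bismark version and the coverage minimum. The position is the 1-based cytosine, since 100% of 495270 listed cytosines inside RefSeq promoter entries fall on a CG.

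Gene spans came from RefSeq GRCm38.p6, which carries no exons here. A level is the unweighted mean of the percent over the cytosines shared by the libraries compared, 3 or more. The library is the unit, so no test was possible, and a difference of 25 points stood in for one in 10 comparisons. Members, lists and windows were chosen with earlier results of these data known. Members past the rule in any comparison were described in all libraries, with the highest and lowest of each role, and at most 4 genes of each pathway list were named. The 500 bp blocks, the separate strands and the choice of blocks were added after seeing the data. Blocks of 5 or more cytosines were chosen by the largest distance of any single teratoma from muscle. Other blocks named were chosen after their values were seen. Scripts were tested on simulated data and ran under Python 3.11.15 with pandas 2.3.3, NumPy 2.4.6 and, for plots, matplotlib 3.10.9.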

Additional observations from a re-analysis of the deposited data

How the results depend on the processing

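Each count of genes past the rule is small, so 1 gene can move it. At gene ends P5_2iL went from 2 genes to 1 under a rule of 30 points or with the strands of a CpG averaged first. P5_2iL_F and P5_LCDM_1 each went from 1 to 2 over cytosines of all 5 libraries and on one strand, P5_LCDM_1 also to 2 on the other strand, and P5_a2iL_1 from 1 to 2 under a rule of 20 points and on one strand. P5_a2iL_1 against P5_2iL went from 1 to 2 (20 points, or cytosines of all 5 libraries) or 0 (30 points, or strands averaged). At annotated starts 0 of 25 genes passed in these 5 comparisons. Dkk3 has no promoter entry and could not be measured there, and Wnt9b in P5_2iL reversed to 0.501 points. The antagonist median for P5_2iL fell from 2.57 to 2.25 points with strands averaged. At annotated starts (6 genes) it was 0.358 for P5_2iL, 0.393 for P5_2iL_F, 3.95 for P5_a2iL_1 and 2.43 for P5_LCDM_1. These medians cover fewer genes, since Sfrp1, Sfrp4, Dkk3 and Dkk4 have no promoter entry and drop out. Sfrp5, Frzb, Dkk1, Dkk2 and Wif1 had the same levels at the start as in their end window. For bodies a rule of 20 points gave 6 genes in P5_2iL, 4 in P5_2iL_F and 5 in P5_LCDM_1, and one of 30 points gave 0 in P5_LCDM_1. With the whole gene as the window 1 gene passed in P5_2iL, 1 in P5_2iL_F and 0 in P5_a2iL_1. The cause of these changes was not tested. Block counts against muscle stayed within 1.5 times under both alternatives. No paired analysis was possible because each group holds 1 library. The missing read counts limit every value, since cytosines read once weigh as much as those read often.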

Other observations

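Several Wnt genes lie side by side, and the stretches between them were read as values only. Between Wnt10b and Wnt1, 11650 bp of chromosome 15, the 91 cytosines averaged 13.7% in muscle and 24.6% (P5_a2iL_1) to 29.8% (P5_LCDM_1) in the teratomas. Between Wnt3a and Wnt9a, 16097 bp of chromosome 11, 109 cytosines stayed between 3.25% (P5_a2iL_1) and 5.97% (P5_2iL) in every library. Between Wnt6 and Wnt10a only 5 cytosines were listed in all libraries, from 0% in muscle and P5_LCDM_1 to 12% in P5_2iL.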
